A study of Nothobranchius furzeri with 9 samples.

Results

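The globin genes of the killifish were described here across 3 ages of the liver. They were taken as every gene of the deposited table whose description contains "hemoglobin subunit" or whose annotated biological processes include oxygen transport. This rule found 19 of 25475 genes and used no measured value. The process term alone found all 19, and the description also found 9 of them. Of the 19, 14 were annotated to the hemoglobin complex and 5 were other globins, namely myoglobin, a pair of cytoglobins, a neuroglobin and a gene described as neuroglobin-like. The name hemoglobin genes therefore fits the 14, and the 5 are described apart from them.

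Bulk liver RNA was sequenced from male *Nothobranchius furzeri*, the African turquoise killifish. All fish were wild type and of GRZ, an inbred strain with a very short life span. Young fish were 6 weeks old, adult fish 12 weeks and old fish 23 to 24 weeks, with 3 libraries at each age and no treatment. The labels number the replicates without stating that each is its own fish, so the p-values measure the spread between these libraries, which may be technical.

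Vertebrate hemoglobin is a tetramer of alpha and beta chains, each holding a heme, and carries oxygen in red cells. Fish red cells keep a nucleus and circulate through every organ, so that liver tissue with blood in it contains their RNA. In teleosts alpha and beta genes lie side by side in clusters, 1 beside the genes mpg and nprl3 and another beside lcmt1 and an aquaporin gene, and embryos, larvae and adults use different members.

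Total estimated counts ran between 19600325 and 33951438 per library. Genes annotated as ribosomal RNA took 29.6% of the counts of young replicate 1 but 4.52 and 4.74% in young replicates 2 and 3. Their share was 2.22 to 2.51% in the adult libraries and 22, 15 and 7.07% in old replicates 1, 2 and 3. Hepatocyte markers were abundant at all ages, with a summed 179286 to 348795 CPM (counts scaled for library size with TMM factors). Exocrine pancreas markers summed to 397 to 2131 CPM in the young libraries, 6212 to 77529 CPM in the adult and 509 to 1032 CPM in the old ones. The part of pancreas RNA in the hemoglobin differences below was not tested, and values without ribosomal genes or without young replicate 1 are given beside them.

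The 14 hemoglobin genes lay in 3 places. A cluster of 11 spanned 51270 bases of the chromosome named sgr05, from 3631429 to 3682698, with kank2 on its left and nprl3, followed by mpg, on its right. A pair, hbbe2 at 35827919 to 35828647 on the minus strand and hbae5 at 35830881 to 35831994 on the plus strand, spanned 4076 bases of sgr12, with an aquaporin 8 gene and lcmt1 to the right. A single gene described as alpha-D-like, HBM, lay farther along sgr12 at 40606871 to 40616334. Positions are those of the deposited table, whose genome build is not given in the sources used here. The table gives whole genes only, so all positions are gene spans, with introns.

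**Figure D1:**
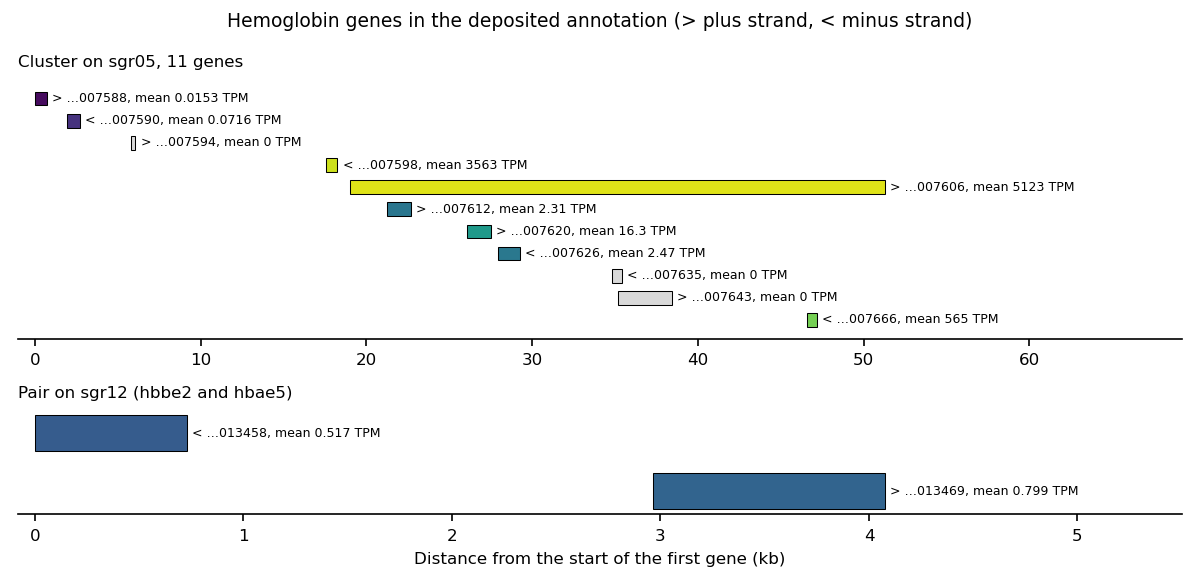
Position of the hemoglobin genes of the sgr05 cluster and of the sgr12 pair, as distance in kb from the start of the leftmost gene, with the last 6 digits of each gene identifier, its strand and its mean TPM over 9 libraries (lighter fill for higher means, grey for no count). ENSNFUG00015007606, with the highest mean, 5123 TPM, is drawn over 32241 bases and covers 6 other members.

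The abundant RNA came from 3 genes of the sgr05 cluster, a beta chain gene and a pair of alpha chain genes. Levels are compared between genes as TPM, which is scaled for gene length. The beta-A-like gene ENSNFUG00015007606 had 6727, 6344 and 11751 TPM in young livers, 3772, 5007 and 6199 TPM in adult livers and 2213, 1696 and 2400 TPM in old livers. In TPM its lowest young value was above the highest adult value, and its lowest adult value above the highest old one. In CPM young and adult values overlapped, with 1728 CPM in young replicate 2 and 2293 CPM in adult replicate 3. Averages were 8274 ± 3018, 4993 ± 1214 and 2103 ± 364 TPM in young, adult and old livers (SD, n = 3 each). By mean TPM it was the gene of rank 14 among all genes in young livers, 30 in adult livers and 72 in old livers.

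An alpha-A-like gene on the minus strand, ENSNFUG00015007598 at 3648964 to 3649678, lay just left of it in a head-to-head pair. It had 4522, 4199 and 7849 TPM in young livers, 2863, 3713 and 4417 TPM in adult livers and 1486, 1293 and 1721 TPM in old livers. All old values lay below all adult values, while the highest adult value was above the lowest young one. The averages were 5523 ± 2021, 3664 ± 778 and 1500 ± 214 TPM in young, adult and old livers (SD, n = 3 each), at ranks 21, 46 and 102.

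A second gene described as alpha-A-like, ENSNFUG00015007666 at 3678003 to 3678628 on the minus strand, was less abundant than the first in every library. It had 915, 673 and 1363 TPM in young livers, 359, 544 and 607 TPM in adult livers and 242, 171 and 214 TPM in old livers. Here too the 3 ages did not overlap in TPM, while young and adult values overlapped in CPM (93.8 CPM in young replicate 2, 113 CPM in adult replicate 3). In TPM, young replicate 3 was the highest of the 9 libraries and old replicate 2 the lowest in each of these genes. In CPM the second alpha-A-like gene was highest in young replicate 1 (221 CPM, beside 207 CPM in young replicate 3).

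**Figure D2:**
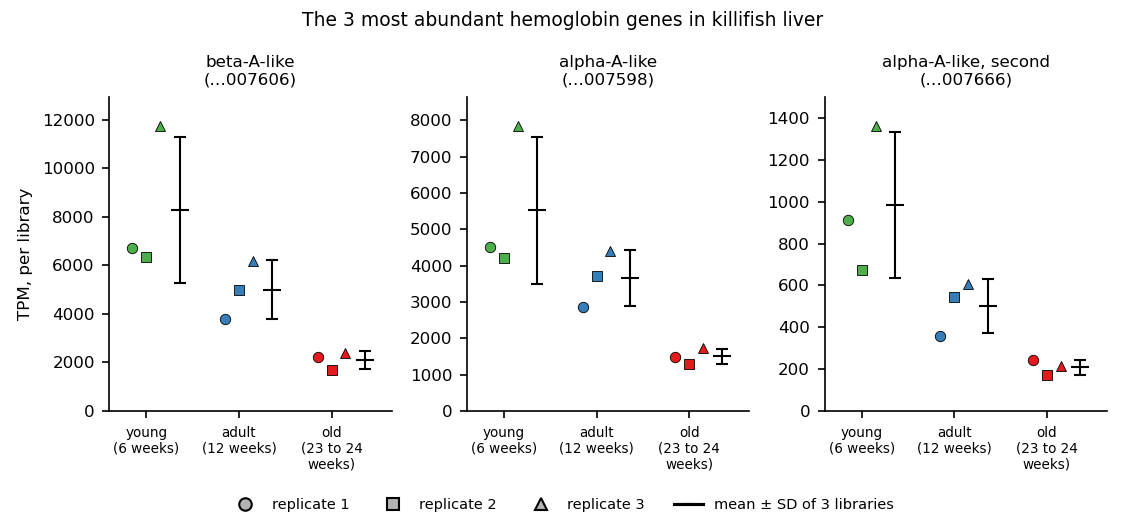
TPM of the beta-A-like gene and both alpha-A-like genes in each library at 6, 12 and 23 to 24 weeks, with replicates as symbols and mean ± SD of 3 libraries as bars, each axis starting at 0. The old libraries lie lowest in all 3 panels, and young replicate 3 lies highest.

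The pattern was tested on counts across all genes with edgeR's quasi-likelihood test, with p-values adjusted by the Benjamini-Hochberg method over the 13971 genes that passed a filter on low counts. Of the 19 members 9 passed that filter, 7 of them hemoglobin genes. No member passed an adjusted p of 0.05 in any comparison. The 3 abundant genes came nearest to it in old against young livers.

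In old against young livers, 0 of 9 tested members changed by edgeR, against 0.558% of all genes tested, while 3 were lower and 1 higher at an unadjusted p under 0.05, against 8.83 and 6.26% of all genes. DESeq2 called 3 of them lower, along with 4.33% of all genes, and limma-voom called 0. The beta-A-like gene averaged 872 ± 166 CPM in old livers and 2711 ± 880 CPM in young livers (SD, n = 3 each), a log2 fold change of -1.64 ± 0.33 (SE, edgeR adjusted p = 0.0635). The alpha-A-like gene ENSNFUG00015007598 averaged 511 ± 68.3 CPM in old livers and 1510 ± 511 CPM in young livers, a log2 fold change of -1.56 ± 0.32 (edgeR adjusted p = 0.0684). The second alpha-A-like gene averaged 45.5 ± 9.34 CPM in old livers and 174 ± 69.9 CPM in young livers, a log2 fold change of -1.94 ± 0.37 (edgeR adjusted p = 0.0571).

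The libraries of old and young livers did not overlap in CPM in 4 members with lower levels in old livers, which were these 3 and HBM, while 7.9% of all genes tested lay lower in old livers without overlap. Myoglobin was the single member with higher levels and no overlap, against 7.69% of all genes. In these bulk samples, fewer red cells in the tissue and less hemoglobin RNA per red cell cannot be told apart.

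The call for the 3 abundant genes differed between fits. Without young replicate 1, the library with the highest share of ribosomal RNA, edgeR called all 3 lower in old than in young livers. The log2 fold changes were then -1.57 ± 0.33 for the beta-A-like gene, -1.46 ± 0.31 for the first alpha-A-like gene and -1.74 ± 0.36 for the second (SE), with edgeR adjusted p of 0.0253, 0.0268 and 0.0245. This fit called 4.76% of all genes lower, and 4.78% where the TMM factors also left out ribosomal and mitochondrial genes, again with all 3 called. Scaling by library size only, under which the median of all genes was -0.36 instead of -0.09, called all 3, with 0.2% of all genes lower. Of all genes called under that scaling 50.9% were lower in old livers, beside 38.5% with TMM factors. Without a filter on low counts the beta-A-like and second alpha-A-like genes were called, with 0.288% of all genes, and without young replicate 2 both alpha-A-like genes, with 0.117%. All 21 alternative fits gave a lower level of these 3 genes in old livers, with adjusted p between 8.39e-05 and 0.226.

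In old against adult livers the same genes had negative log2 fold changes nearer to 0, a difference that was not tested. Of 9 tested members 0 changed by edgeR, against 0.00716% of all genes, and 3 were lower at an unadjusted p under 0.05, against 11% of all genes. DESeq2 called 2 lower, along with 6.31% of all genes, and limma-voom called 0. The log2 fold changes were -1.10 ± 0.33 for the beta-A-like gene (adjusted p = 0.116), -1.11 ± 0.32 for the first alpha-A-like gene (adjusted p = 0.115) and -1.07 ± 0.36 for the second (adjusted p = 0.141), by edgeR.

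These 3 were also the members whose old and adult libraries did not overlap in CPM, where 21.6% of all genes lay lower without overlap. All 7 tested hemoglobin genes had a negative log2 fold change, as had 51.7% of all genes tested, with a median of -1.10 beside -0.05 over all genes tested. Fitted on old and adult libraries alone, edgeR called the 3 abundant genes lower, in a fit that called 5.43% of all genes lower. Without young replicate 1 it called the beta-A-like and the first alpha-A-like gene lower (edgeR adjusted p = 0.0474 and 0.04), with 5.39% of all genes, or 5.16% where the TMM factors also left out ribosomal and mitochondrial genes.

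In adult against young livers the differences were smaller. Of 9 tested members 0 changed by edgeR, against 0.0143% of all genes, and 1, the second alpha-A-like gene, was lower at an unadjusted p under 0.05, against 5.28% of all genes. DESeq2 and limma-voom called 0. That gene had a log2 fold change of -0.87 ± 0.36 (adjusted p of 0.475 by edgeR), while the beta-A-like gene had -0.54 ± 0.32 (adjusted p = 0.629) and the first alpha-A-like gene -0.45 ± 0.32 (adjusted p = 0.682). In CPM, no member lay lower in adult livers without overlap, against 9.68% of all genes, and 1, myoglobin, lay higher without overlap, against 12%. The comparisons share libraries, so their values are set side by side without a test between them.

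**Figure D3:**
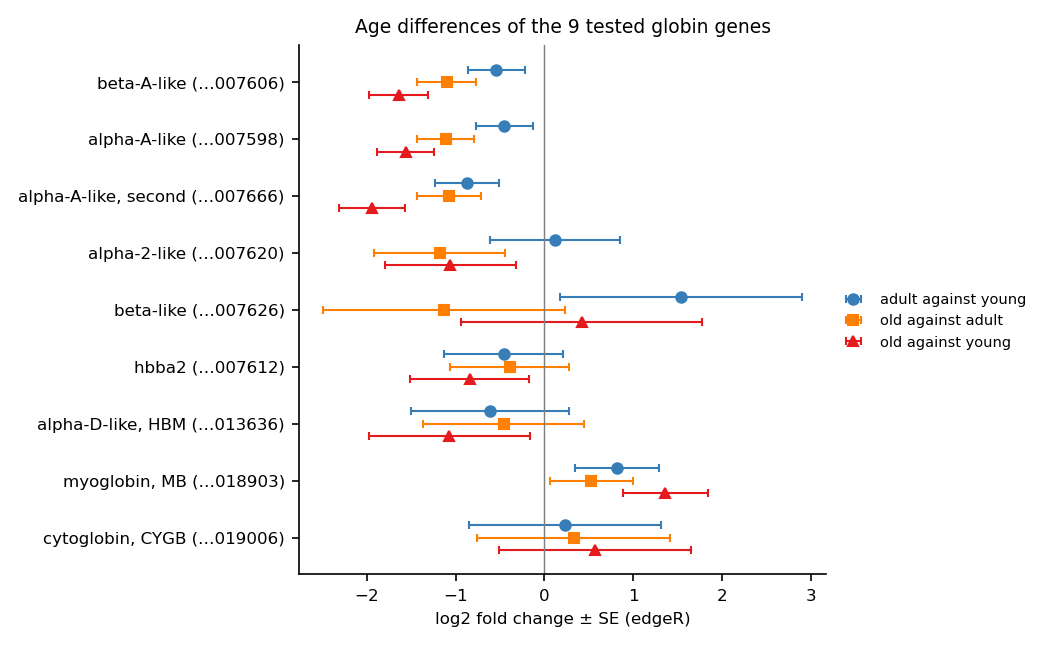
Log2 fold change ± SE (edgeR) of the 9 tested globin genes for adult against young (circles), old against adult (squares) and old against young (triangles), with 0 marked by a line. The 3 abundant genes lie left of 0 in all comparisons with short bars, at -1.64, -1.56 and -1.94 in old against young, and myoglobin lies right of 0.

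Summed over the 14 hemoglobin genes, TPM was 12182, 11244 and 21009 in young livers, 7006, 9285 and 11272 in adult livers and 3961, 3169 and 4340 in old livers. The old sum averaged 3823 ± 598 TPM, against 14812 ± 5388 TPM in young livers (SD, n = 3 each), a ratio of 0.258. Against adult livers, which averaged 9188 ± 2135 TPM, the ratio was 0.416. The adult and young sums overlapped, by the highest adult and the lowest young library, with a ratio of 0.62. The 3 abundant genes made up 99.5 to 99.9% of the hemoglobin TPM in every library.

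As a share of all counts, hemoglobin reads were 0.418, 0.368 and 0.696% in young livers, 0.229, 0.298 and 0.345% in adult livers and 0.143, 0.114 and 0.146% in old livers. At these depths the counting error was small: the 95% Wilson interval was 0.366 to 0.370% in young replicate 2, for example. Without ribosomal RNA and mitochondrial genes in the total, the shares were 0.662, 0.391 and 0.742% in young, 0.237, 0.309 and 0.358% in adult and 0.190, 0.139 and 0.160% in old livers. On that base too the 3 ages did not overlap, and the ratio of old to young was 0.272 with either total. In CPM with TMM factors adult and young livers did overlap: the hemoglobin sum was 4942, 2755 and 5518 in young, 2544, 2955 and 3736 in adult and 1568, 1153 and 1577 in old livers. The ratio in CPM was 0.325 for old to young, 0.465 for old to adult and 0.699 for adult to young.

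Alpha and beta RNA kept a narrow ratio while their level varied. The summed TPM of both alpha-A-like genes over that of the beta-A-like gene lay between 0.768 and 0.863 in the 9 libraries, although the beta gene itself varied from 1696 to 11751 TPM. The ratio averaged 0.787 ± 0.0201 in young, 0.838 ± 0.0243 in adult and 0.817 ± 0.0419 in old livers (SD, n = 3 each). Every adult ratio lay above every young one, while old ratios overlapped with both. The two-sided exact permutation test gave p = 0.5 for old against young, 0.6 for old against adult and 0.1 for adult against young. With 3 against 3 libraries 0.1 is the smallest p possible, so no difference could pass a threshold of 0.05 and the test cannot decide whether the ratio changed. Over the 6 tests of this kind the adjusted p were 0.72, 0.72 and 0.3.

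The second alpha-A-like gene took 13.8 to 16.8% of the alpha-A-like TPM in young livers, 11.2 to 12.8% in adult livers and 11.1 to 14% in old livers. Adult shares lay below all young ones, by 3.1 percentage points on average (exact permutation p = 0.1, adjusted p = 0.3). Old and young shares overlapped, and so did old and adult ones (exact permutation p = 0.2 and 0.9, adjusted p = 0.4 and 0.9).

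The gene model limits what the beta value stands for. ENSNFUG00015007606 runs from 3650458 to 3682698 on the plus strand and holds 3 transcripts and 2 Entrez numbers, which the RefSeq gene table of assembly NfurGRZ-RIMD1 lists as separate genes. It overlaps 10 annotated genes, 4 on its strand and 6 on the other, and 6 of these are hemoglobin members. It was also the only member with fractional estimated counts, in all 9 libraries. Its level may thus be that of more than 1 beta gene, and reads of near-identical copies could have been split among the alpha and beta genes by the authors' counting. The strand setting of the counting is not given in the sources used here. A gene without symbol or description on its start, ENSNFUG00015007602, had 2.86, 1.78 and 4.45 CPM in old livers, against 11.5, 7.2 and 13.9 CPM in young livers.

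The other hemoglobin genes of the sgr05 cluster were scarce. An alpha-2-like gene, ENSNFUG00015007620 at 3657494 to 3658965 on the plus strand, was the most abundant of them, with a mean of 16.3 TPM over 9 libraries. It had 14, 18.7 and 30.8 TPM in young livers, 8.73, 13.6 and 37.9 TPM in adult livers and 14.1, 6.1 and 2.52 TPM in old livers. The ages overlapped, with adult replicate 3 the highest of all. The log2 fold change in old against young was -1.06 ± 0.74 (edgeR adjusted p = 0.544).

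A beta-like gene on the opposite strand, ENSNFUG00015007626 at 3659368 to 3660670, faces it tail to tail. It had 0.9, 2.77 and 1.27 TPM in young livers, 1.57, 2.55 and 8.56 TPM in adult livers and 4.12, 0 and 0.537 TPM in old livers. As in the alpha-2-like gene, adult replicate 3 was the highest library and old replicate 1 the highest of the old ones. Its log2 fold change in old against young was 0.42 ± 1.36 (edgeR adjusted p = 0.922), and the sign was negative under limma-voom, with the replicate block and without old replicate 1.

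The adult beta gene hbba2, ENSNFUG00015007612 at 3652669 to 3654112, lies within the span of the beta-A-like gene on the same strand. It had 2.57, 2.22 and 4.97 TPM in young livers, 1.59, 3.09 and 2.17 TPM in adult livers and 1.11, 1.07 and 2.02 TPM in old livers. In TPM all old values were below all young ones, while in CPM they overlapped (1.44 CPM in old replicate 3, 1.04 CPM in young replicate 2). The log2 fold change in old against young was -0.84 ± 0.67 (adjusted p of 0.606 by edgeR).

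The remaining 5 genes of the cluster had almost no reads. GB-BETA4, a beta-like gene (ENSNFUG00015007590), had 4 and 2 counts in young replicates 2 and 3 and 0 in the other 7 libraries. An embryonic alpha-like gene, ENSNFUG00015007588, had 1 count, in adult replicate 1. The second embryonic alpha-like gene, ENSNFUG00015007635, and ENSNFUG00015007594 and ENSNFUG00015007643, which have no description, had 0 counts in all 9 libraries. A count of 0 over the 3 libraries of an age allows up to 3 counts, which is 0.0326, 0.042 and 0.0508 CPM in young, adult and old livers. This bound and the intervals below cover counting error only.

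The sgr12 pair was seen almost solely in young livers. The beta gene hbbe2 (ENSNFUG00015013458, described as beta-1-like) had 6, 26 and 10 counts in young livers, 1, 0 and 0 in adult livers and 0 in all 3 old livers. The alpha gene hbae5 (ENSNFUG00015013469, described as alpha-1-like) had 0, 15 and 36 counts in young livers, 0, 2 and 0 in adult livers and 0 in all 3 old livers. Symbols of this form are used in zebrafish for embryonic chains. HBM, described below, has the RefSeq symbol hbae4, of the same form, and had counts in all 9 libraries. Every young library had a count of hbbe2, but young replicate 1 had none of hbae5.

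Neither gene passed the filter on low counts. In the fit of all 9 libraries without that filter, edgeR called neither in old against young, with adjusted p of 0.205 for hbbe2 and 0.284 for hbae5 (0.00809 and 0.0196 unadjusted). From the summed counts, hbbe2 was at least 8.98-fold lower in old than in young livers (0 against 42 counts), and hbae5 at least 10.9-fold lower (0 against 51 counts). These bounds take the young counts as they stand, without their counting error. Young replicate 3 held 36 of the 51 counts of hbae5, and without it the bound was 4.64-fold. With each old or young library left out in turn, the bounds ran between 5.7 and 9.91 for hbbe2, lowest without old replicate 3, and between 4.64 and 15.1 for hbae5, with 6.92 without old replicate 3. In adult against young livers the ratio was 0.0307 for hbbe2 (1 against 42 counts, 95% exact interval 0.00076 to 0.181) and 0.0506 for hbae5 (2 against 51 counts, 0.00597 to 0.192). The hbae5 ratio was 0.119 without young replicate 3, 0.0766 without adult replicate 1 and 0.0777 without adult replicate 3, and the hbbe2 ratio was 0.0472 without adult replicate 3. Without adult replicate 1 hbbe2 had no adult count and was at least 7.17-fold lower than in young livers, and without adult replicate 2 hbae5 was at least 9.07-fold lower. Together they reached 0.796, 3.9 and 6.73 TPM in young livers, at most 0.035% of the hemoglobin TPM of a library. Where leaving out a library let both genes pass the filter, as without young replicate 1, edgeR called neither in old against young (adjusted p between 0.0856 and 0.422 over these fits).

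The alpha-D-like gene HBM (ENSNFUG00015013636), which stands alone on sgr12, had 0.525, 0.787 and 1.2 TPM in young livers, 0.172, 0.821 and 0.555 TPM in adult livers and 0.186, 0.379 and 0.316 TPM in old livers. Old and young values did not overlap, with a log2 fold change of -1.07 ± 0.91 (edgeR adjusted p = 0.63). It rests on 4 to 24 counts a library.

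Of the other globins, myoglobin and 1 cytoglobin gene passed the filter on low counts, and neither had its lowest levels in old livers. Myoglobin, MB (ENSNFUG00015018903, sgr08 at 6186451 to 6187913), binds oxygen in muscle. It had 4.73, 7.6 and 5.69 TPM in young livers, 7.78, 13.6 and 6.65 TPM in adult livers and 11.5, 7.69 and 17.4 TPM in old livers. All old values were above all young ones, while adult values overlapped with both in TPM. The log2 fold change was 1.36 ± 0.48 in old against young (edgeR adjusted p = 0.221) and 0.53 ± 0.47 in old against adult (adjusted p = 0.521).

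Cytoglobin, CYGB (ENSNFUG00015019006, sgr03 at 50294019 to 50313343), a globin of fibroblast-like cells in mammals, had 0.122, 1.89 and 0.813 TPM in young livers, 1.5, 1.03 and 0.082 TPM in adult livers and 0.775, 0.787 and 1.23 TPM in old livers. All ages overlapped, and no comparison passed the test. The second CYGB gene, described as cytoglobin 2 (ENSNFUG00015011879, sgr08), had 1 count in adult replicate 1 and 2 in old replicate 1. The gene GBX (ENSNFUG00015022930, sgr16), described as neuroglobin-like but with the RefSeq symbol xgb, had 1, 6 and 0 counts in young livers, 2, 1 and 0 in adult livers and 0 in all 3 old livers. Its 7 young counts, 6 of them from young replicate 2, set old livers at least 1.5-fold lower, and without that replicate young and old counts were both at or under the floor of 3. The bound was 0.997 without old replicate 2 and 0.95 without old replicate 3, so that a lower level in old livers is not set. NGB (ENSNFUG00015021626, sgr16), a globin of neurons, had no count in any library. It overlaps ENSNFUG00015021109 on the same strand, which had 21807 counts over all libraries, and whether this overlap set the count of NGB was not tested.

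**Figure D4:**
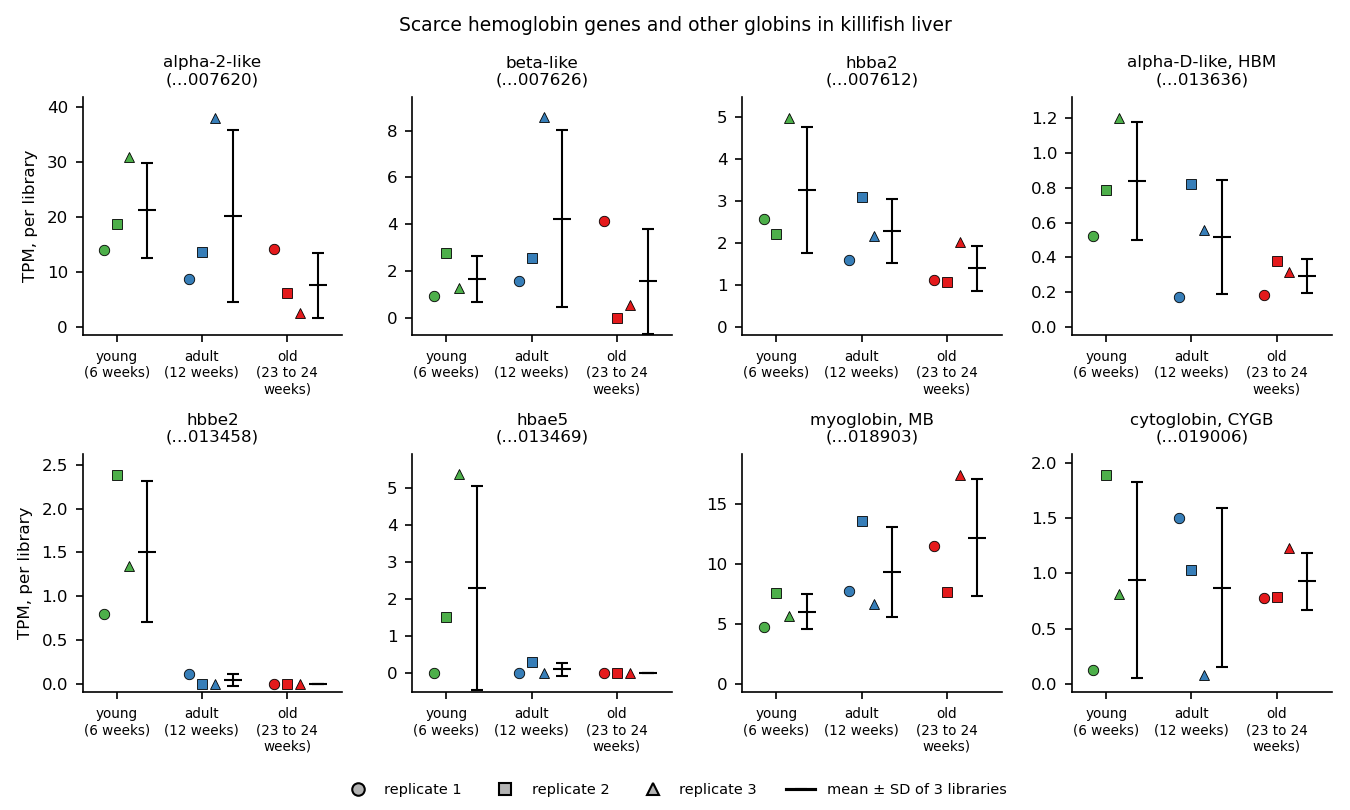
TPM per library of the 6 scarce hemoglobin genes with the most reads, myoglobin and cytoglobin at 6, 12 and 23 to 24 weeks, with mean ± SD of 3 libraries as bars, which reach below 0 where the spread exceeds the mean. hbbe2 and hbae5 are at or near 0 in adult and old livers, and the alpha-2-like and beta-like genes share their highest library, adult replicate 3.

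Ordered by mean TPM, the beta-A-like gene was above the first alpha-A-like gene, that above the second, and that above the alpha-2-like gene, each in 9 of 9 libraries. The alpha-2-like gene was above myoglobin in 7 libraries, and myoglobin above the beta-like gene in 8. The beta-like gene was above hbba2 in only 3 libraries, so that the order of these neighbours is not set by their values. hbba2 was above CYGB in 9 of 9 libraries.

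The genes most like the abundant hemoglobin genes were found by Pearson's r of log2 CPM with the mean of the beta-A-like and the first alpha-A-like gene over the 9 libraries. These r are a description, since all genes share the same libraries and scaling. Among the members, the second alpha-A-like gene had r = 0.980, hbba2 0.814, the alpha-2-like gene 0.668 and HBM 0.640. The beta-like gene ENSNFUG00015007626 had 0.367, CYGB (ENSNFUG00015019006) -0.567 and myoglobin -0.684.

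Outside the members, cahz was the most alike (r = 0.968). It encodes a carbonic anhydrase that is found in red cells of zebrafish. It had 19.7, 12.6 and 20.5 CPM in old livers, against 44.1, 30.4 and 56 CPM in young livers, with no overlap (log2 fold change -1.31 ± 0.33). The adult values were 35.9, 37 and 46.8 CPM.

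The choice by likeness favours genes with lower levels in old livers, so such levels in the 8 are a description. A protamine-like gene, ENSNFUG00015018491 (r = 0.947), had 10.6, 6.29 and 18.3 CPM in old livers, against 58.5, 39.2 and 78.8 CPM in young livers. The others were an excitatory amino acid transporter 3-like gene (r = 0.961), ENSNFUG00015025346 (0.952), ENSNFUG00015007602 (0.951), elp4 (0.942), sass6 (0.940) and gjb10 (0.934). Of these, ENSNFUG00015007602 overlaps the beta-A-like gene, and the part of reads of that gene in its likeness was not tested. Some of the 8 were scarce. Mean CPM in young, adult and old livers were 1.42, 0.726 and 0 for the transporter gene and 1.01, 0.847 and 0.0155 for gjb10. They were 2.51, 1.93 and 1.09 for elp4 and 2.53, 1.28 and 0.312 for sass6.

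Red cell and erythroid markers as a list did not follow the hemoglobin genes in their sum, which was 1277 to 1497 CPM in young, 1276 to 1735 CPM in adult and 1385 to 1549 CPM in old livers. Much of it came from prdx2 and pklr, which hepatocytes also express, and from TFR1A. Means in young, adult and old livers were 522, 567 and 782 CPM for prdx2. They were 514, 290 and 188 CPM for pklr and 76.6, 329 and 331 CPM for TFR1A. Of 27 tested markers, 0 changed in old against young by edgeR and 0 by limma-voom, and DESeq2 called 5, beside 1056 of all 13971 genes. At an unadjusted p under 0.05, 3 were higher and 5 lower, against 6.26 and 8.83% of all genes. Log2 fold changes were negative for 20 and positive for 7, with a median of -0.40 beside -0.09 over all genes tested. In old against adult 17 were lower and 10 higher (median -0.57 beside -0.05), and in adult against young 11 were lower and 16 higher (median 0.12 beside -0.07), again with 0 changed. There DESeq2 called 3 and 2 and limma-voom 0, and the unadjusted counts were 5 and 4. Over all 13971 genes, DESeq2 called 1811 and 386, and the unadjusted counts were 3158 and 1363. Of the markers, URP2 and 1 copy of ANK1 had no count in any library.

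In CPM, 6 of the 27 lay lower in old than in young livers without overlap and 4 lay higher, against 7.9 and 7.69% of all genes tested. The 6 were pklr, cahz, alas2, slc4a1a, TMOD1 and TMOD4, and the 4 were TFR1A, prdx2, BNIP3LB and ANK1 (ENSNFUG00015023113). Between old and adult livers 10 of the 27 lay lower in old without overlap and 3 higher, against 21.6% of all genes lower and 2674 of 13971 higher. The transferrin receptor TFR1A, which takes up iron, had 350, 336 and 307 CPM in old livers, against 60.3, 106 and 63.9 CPM in young livers (log2 fold change 2.11 ± 0.44, edgeR adjusted p = 0.0707). In adult livers TFR1A already had 157, 292 and 537 CPM. Its log2 fold change was 2.10 ± 0.44 in adult against young and 0.01 ± 0.42 in old against adult (edgeR adjusted p = 0.141 and 0.993). The pyruvate kinase pklr had 219, 141 and 203 CPM in old livers, against 483, 442 and 616 CPM in young livers (log2 fold change -1.45 ± 0.30, edgeR adjusted p = 0.0702).

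Further red cell genes are given next, of which slc4a1a, sptb, GATA1A and EPOR were picked with their values known. The first enzyme of heme synthesis in red cells, alas2, had 22.1, 5.83 and 16.2 CPM in old livers, against 34.9, 33.9 and 56.9 CPM in young livers (log2 fold change -1.51 ± 0.47, edgeR adjusted p = 0.171). The anion exchanger of the red cell membrane, slc4a1a, had 16.7, 0.355 and 14.1 CPM in old livers, against 40.5, 30.7 and 65.2 CPM in young livers (log2 fold change -2.13 ± 0.91, adjusted p = 0.304). Old replicate 2 was the lowest library for both, as for hemoglobin, and neither overlapped between old and young.

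The gene sptb, which encodes a spectrin of the membrane skeleton, had 15.1, 7.2 and 4.73 CPM in old livers, against 12, 7 and 18.3 CPM in young livers. GATA1A, the erythroid transcription factor, had 8.64, 2.59 and 4.04 CPM in old livers, against 2.67, 5.72 and 12.6 CPM in young livers. EPOR, the erythropoietin receptor, had 27.2, 23.5 and 27.3 CPM in old livers, against 26.3, 13 and 23.9 CPM in young livers. All 3 overlapped between old and young livers.

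**Figure D5:**
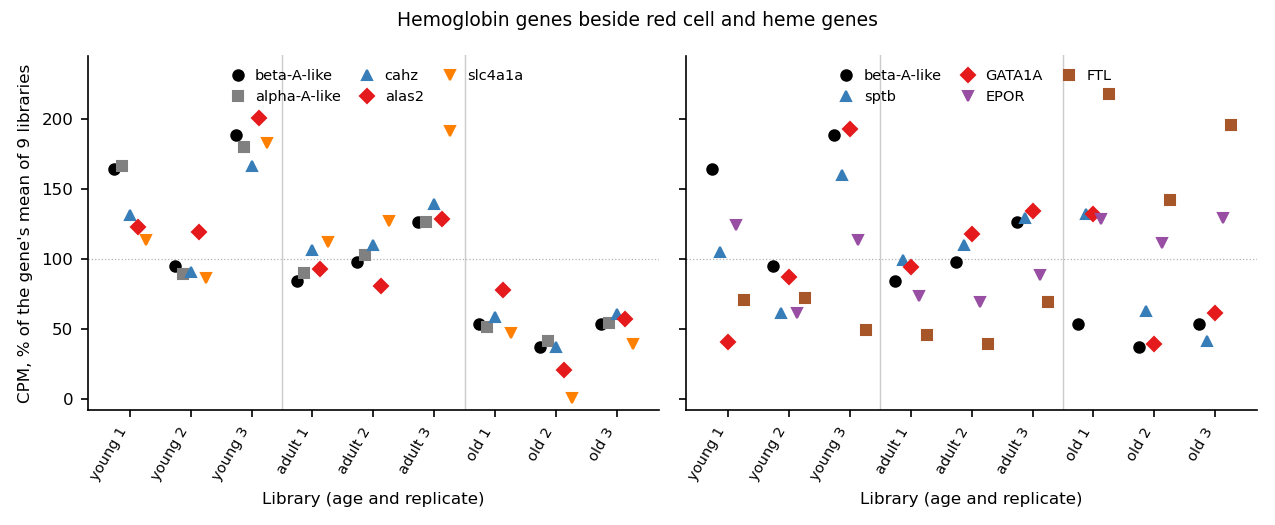
CPM per library as a percentage of each gene's mean over the 9 libraries, for the beta-A-like and first alpha-A-like genes with cahz, alas2 and slc4a1a (left) and for the beta-A-like gene with sptb, GATA1A, EPOR and FTL (right), with the dotted line at 100%. In the left panel all old values lie below 100%, and in the right panel FTL and EPOR lie above 100% in the old libraries.

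The 13 tested genes of heme synthesis include alas2 and SLC25A37, which are also in the red cell list. Their median log2 fold change was -0.56 in old against young, with 10 lower and 3 higher, beside -0.09 and 7525 lower over all genes tested. In old against adult it was -0.65, also with 10 lower and 3 higher, beside -0.05 and 7229 lower. In adult against young 4 were lower and 9 higher (median 0.08), beside 7511 lower and a median of -0.07. None of the 13 changed by edgeR or limma-voom, while DESeq2 called 2, 2 and 0, beside 1056, 1811 and 386 of all 13971 genes. At an unadjusted p under 0.05 there were 2, 3 and 1, beside 2108, 3158 and 1363 of all genes. In CPM, 9 of the 13 lay lower in old than in adult livers without overlap and 2 higher, against 21.6% of all genes lower and 2674 of 13971 higher. Between old and young livers 1 lay lower in old and 1 higher, against 7.9 and 7.69%. The smallest p in old against young belonged to FAM210B, a mitochondrial protein that aids heme synthesis, at 73, 103 and 94.3 CPM in old livers, against 42.4, 39.5 and 39.9 CPM in young livers (edgeR adjusted p = 0.0956). ALAD, the second enzyme, had 22.1, 24.4 and 23.8 CPM in old livers, against 23.8, 43.8 and 44.1 CPM in young livers (adjusted p = 0.331).

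Genes that clear hemoglobin and heme had a median of 0.00 in old against young, with 8 of 16 higher and 8 lower. Of these 16, 0 changed by edgeR in any comparison. In old against young 5 were higher and 1 lower at an unadjusted p under 0.05, against 6.26 and 8.83% of all genes. DESeq2 called 5 there, beside 1056 of all 13971 genes, and limma-voom 1, beside 83. FTL, a subunit of the iron store ferritin, had 2337, 1528 and 2102 CPM in old livers, against 757, 776 and 530 CPM in young livers (log2 fold change 1.53 ± 0.32, edgeR adjusted p = 0.0704). HMOX1, which opens the heme ring, was named after its values were seen: it had 285, 403 and 677 CPM in old livers, against 121, 62.7 and 41.2 CPM in young livers (log2 fold change 2.60 ± 0.84, adjusted p = 0.181). In adult livers HMOX1 had 84, 75.3 and 659 CPM, so that adult and old values overlapped. BLVRA, the next enzyme, had 29, 32.1 and 30.9 CPM in old livers, against 18.6, 17.3 and 16.3 CPM in young livers (adjusted p = 0.181). In these 3 genes no old value overlapped with a young one. Over the list, 5 of 16 lay higher in old livers without overlap and 2 lower, against 7.69 and 7.9% of all genes tested. The 2 were hmox1a and the ferritin gene FTH1A (ENSNFUG00015017520), both named after their values were seen. Another heme oxygenase gene, hmox1a, had 0.73, 0.863 and 1.11 CPM in old livers, against 5.73, 1.63 and 1.82 CPM in young livers (log2 fold change -1.75 ± 0.77, edgeR adjusted p = 0.319). A further one, HMOX2B, also named after its values were seen, overlapped between these ages. It had 14.9, 18.3 and 23.1 CPM in old livers, against 28.4, 19.5 and 12.5 CPM in young livers. That FTH1A gene had 444, 515 and 548 CPM in old livers, against 709, 574 and 769 CPM in young livers (log2 fold change -0.45 ± 0.24, adjusted p = 0.429). The abundant hemopexin genes hpxa and HPX had means of 39411, 80951 and 26730 CPM and of 8095, 14700 and 9035 CPM in young, adult and old livers. Both lay lower in old than in adult livers without overlap (edgeR adjusted p = 0.158 and 0.235). Of the 16, 6 did so and 3 lay higher, against 21.6% of all genes lower and 2674 of 13971 higher. In old against adult the list had 11 lower and 5 higher (median -0.22, DESeq2 5, limma-voom 0, unadjusted 6) and in adult against young 5 lower and 11 higher (median 0.19, DESeq2 and limma-voom 0, unadjusted 3). Over all 13971 genes, DESeq2 called 1811 and 386 in these comparisons, and the unadjusted counts were 3158 and 1363.

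The tested genes of erythropoietin and oxygen sensing did not include erythropoietin itself. Its gene epoa (ENSNFUG00015001343) matched no symbol of the list and did not pass the filter on low counts. It had 6, 50 and 9 counts in young, 4, 6 and 9 in adult and 0, 0 and 13 in old livers. Of the 19 tested genes of the list 13 were higher in old against young livers, with a median of 0.15, beside 6446 of all 13971 genes and a median of -0.09. Past an unadjusted p of 0.05 or called by any of the 3 tools were 0. Over all genes, 8.83% were lower and 6.26% higher at that p, and edgeR, DESeq2 and limma-voom called 78, 1056 and 83. In old against adult the median was -0.43 with 8 higher, beside -0.05 and 6742 over all genes. In adult against young it was 0.58 with 12 higher, beside -0.07 and 6459. In these last comparisons edgeR and limma-voom called 0 of the list, DESeq2 called 3 and 1, and 6 and 2 were past an unadjusted p of 0.05. Over all 13971 genes, DESeq2 called 1811 and 386, and 3158 and 1363 were past that p.

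Markers of other cells were read beside these values. Leukocyte markers summed to 33.7 to 40.7 CPM in young livers, 73 to 395 CPM in adult livers and 71.6 to 117 CPM in old livers. The sum of 395 CPM was that of adult replicate 1, where OLA.17191 alone had 260 CPM. In old against young 11 of 14 tested leukocyte markers were higher and 3 lower, with a median log2 fold change of 1.50 beside -0.09 over all genes tested. At an unadjusted p under 0.05, 7 were higher, where 6.26% of all genes were higher and 8.83% lower. DESeq2 called 5, beside 1056 of all 13971 genes, and limma-voom called 1, beside 83. By edgeR 1, lck, a kinase of T cells, rose (13.6, 17.7 and 11.6 CPM in old, against 0.0546, 0.353 and 0.0351 CPM in young livers, edgeR adjusted p = 0.0125). In adult against young 13 of the 14 were higher (median 2.40 beside -0.07 over all genes tested). In old against adult 6 were higher (median -0.05 beside -0.05). There edgeR and limma-voom called 0 and DESeq2 6 and 1, beside 386 and 1811 of all 13971 genes. At an unadjusted p under 0.05, 8 were higher and 0 lower in adult against young, and 1 higher and 2 lower in old against adult. Over all genes, 626 were higher and 737 lower, and 1623 higher and 1535 lower. Thrombocyte markers, also from blood, summed to 12.1 to 28.5 CPM in young, 28.5 to 34.2 CPM in adult and 10.5 to 18.9 CPM in old livers, with 6 of 7 lower in old against young (median -0.59) and 0 changed by edgeR, 1 by DESeq2, 0 by limma-voom and 1 at an unadjusted p under 0.05. All 7 were higher in adult against young (median 0.76), as were 6459 of all 13971 genes. All 7 were lower in old against adult (median -1.16), as were 7229 of all genes. There edgeR and limma-voom called 0 and DESeq2 0 and 2. At an unadjusted p under 0.05 there were 0 and 2, beside 1363 and 3158 of all genes. Endothelial markers summed to 86.3 to 168 CPM in young, 138 to 145 CPM in adult and 123 to 157 CPM in old livers, with a median of -0.06 over 14 in old against young and 0 changed by edgeR, DESeq2 or limma-voom and 1 at an unadjusted p under 0.05. Their part in the hemoglobin difference was not tested.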

How the data were processed

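Per the file headers, the deposited table gives each of 25475 genes an estimated count per library, made by the authors without scaling between libraries, and a TPM, which the authors scaled for length and to a common sum. The submitters' processing notes name DRAGEN without version or role. Not given in the sources used here were aligner settings, genome build, annotation release and strand setting. Per the labels' protocols, libraries were made from total RNA with a SMART-Seq mRNA kit. No value column was left without a library.

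Estimated counts, of which 93.6 to 95.7% per library were whole, were rounded, which changed no value by more than 0.5. They were tested with edgeR 4.0.16 (filterByExpr, TMM, robust glmQLFit on all 9 libraries, glmQLFTest) in R 4.3.3, with Benjamini-Hochberg adjustment over 13971 genes and a threshold of 0.05. The SE is the log2 fold change divided by the root of F. CPM uses TMM-scaled library sizes, and TPM was used for levels only. The test was also run on simulated counts, whose outcome is not given here and on which no result above rests. A fold against an age without a count is a bound from 3 counts over the summed library sizes of that age. It leaves out the counting error of the other age.

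The members, the 11 gene lists with 280 symbols and the tests were chosen with earlier results of these data known. Named genes were every member, of each list up to 4 genes by p in old against young and 3 by abundance, of which some are printed, and the 8 genes most like the 2 most abundant members (r of log2 CPM, prior count 2). Others are said to have been chosen after their values were seen. Hepatocyte markers (18 tested) had medians of 0.20 in old against young, -0.15 in old against adult and 0.53 in adult against young, and exocrine pancreas markers (13 tested) -0.49, -5.57 and 5.08. Of the 14 germ cell symbols 7 matched and 0 passed the filter, and the other globins matched were all members.

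Alternatives were median-of-ratios scaling, library size only, TMM without the members or without ribosomal and mitochondrial genes, DESeq2 1.42.0, limma-voom (limma 3.58.1), no filter on low counts, at least 1 CPM in 3 libraries, no robust estimation, the replicate block, only the 2 ages compared and each of the 9 libraries left out. Leaving out young replicate 1 together with TMM without ribosomal and mitochondrial genes was added after seeing the data, as were the bounds with libraries left out. No sequences are printed.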

Additional observations from a re-analysis of the deposited data

How the results depend on the processing

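The number of changed members was 0 in adult against young under all 21 alternatives. In old against young it was 0 as reported, 3 with library size only, 2 without a filter on low counts, 3 with DESeq2 and 3 without young replicate 1 combined with scaling without ribosomal and mitochondrial genes, an alternative chosen after seeing the data. With each library left out it ran from 0 to 3, the 3 coming without young replicate 1 and a value of 2 without young replicate 2. In old against adult it was 0 as reported, 2 with DESeq2, 3 with only the 2 ages compared and 2 with the added alternative, and ran from 0 to 2 with libraries left out, the 2 coming without young replicate 1. Every call was of the beta-A-like or an alpha-A-like gene, and lower in old. Over all genes the count moved from 78 in old against young to 131 without the filter, 1056 with DESeq2, 6 with only the 2 ages, 1313 with the added alternative and 2 to 1321 with libraries left out. In old against adult it moved from 1 to 74, 1811, 1682, 1592 and 0 to 1625, and in adult against young from 2 to 13, 386, 0, 6 and 0 to 12, with 10 under limma-voom. The replicate numbers were not shown to pair the fish, since same-numbered libraries had correlated deviations above 0.1 in 2 of 3 pairs of old and young, 1 of adult and young and none of old and adult. With the replicate block 0 members changed, and 45, 0 and 0 genes over the 3 comparisons in the order above. Signs turned in scarce genes only: CYGB (ENSNFUG00015019006) in adult against young, 0.23 as reported, was -0.20 with library size only, -0.32 under limma-voom, -0.25 with the added alternative and -0.53 to 1.11 with libraries left out, and in old against adult -0.23 to 1.09 with libraries left out. The alpha-2-like gene in adult against young, 0.12 as reported, was -0.17 with library size only, -0.06 under limma-voom and -0.70 to 0.47 with libraries left out. The beta-like gene ENSNFUG00015007626 in old against young, 0.42 as reported, was -1.22 under limma-voom, -0.38 with the replicate block and -2.20 to 0.99 with libraries left out. Library size only moved the median of all genes to -0.36 in old against young and in adult against young, beside -0.09 and -0.07. The cause of these shifts was not tested. Few counts limit HBM, which rests on 4 to 24 counts a library, and the 10 members under the filter on low counts, 4 of them without a count. The part of depth or of overlapping genes in these low counts was not tested.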
